A study of Mus musculus with 23 samples.

Results

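The miRNAs of the imprinted Dlk1-Dio3 domain on mouse chromosome 12 were followed in liver. The members were taken by name from a list of 45 mature miRNAs. Of these, 44 have a row in the count table of 1218 mature miRNAs, and mmu-miR-493-3p was not analysed here. Of the 44 members, 13 passed the filter on low counts and were tested among 386 miRNAs, and 31 did not pass.

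The study asked whether feeding successive generations of C57bl/6J mice a diet enriched in long-chain omega 3 fatty acids changed the liver's response to an obesogenic diet in the third generation. The 23 liver small RNA libraries came from male mice and are separate samples in the labels, each taken here as 1 mouse. The reference group (8 libraries, numbered 1 to 8) came from the control lineage, bred on a growing diet with high oleic sunflower oil, and received a low-fat diet. The HFoleic group (8 libraries, 9 to 15 and 23) came from the same control lineage and received a high-fat, high-sucrose diet. The HFepa group (7 libraries, 16 to 22) came from the omega 3 lineage, bred on a growing diet with a fish oil rich in EPA, and received the same high-fat, high-sucrose diet. No transgene or deletion was used, and no group had the omega 3 lineage with the low-fat diet, so HFepa vs. reference joins lineage and diet. Library totals lay between 3725432 and 8139344 counts, and the members together took between 0.0132% and 0.703% of them.

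In this domain, the long noncoding RNAs Meg3, Rian and Mirg and an RNA antisense to Rtl1 are made from the maternal chromosome, whereas the protein-coding genes Dlk1, Rtl1 and Dio3 are made from the paternal one. Except for miR-3071 on the strand of Rtl1, the miRNAs lie within the maternal transcripts and are thought to come from 1 long precursor. They are known as abundant miRNAs of placenta, embryo, brain and endocrine cells and as scarce miRNAs of adult hepatocytes. A mature miRNA binds target mRNAs mainly through its seed, bases 2 to 8 from the 5′ end, and represses them.

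The 44 members come from 35 hairpins that span 180.1 kb of chromosome 12, from chr12:109563692 to chr12:109743795 (GRCm38.p6), 34 of them on the plus strand. In the GENCODE annotation of GRCm38, the hairpin of miR-770 overlaps an exon of Meg3, 5 hairpins lie antisense to the coding exon of Rtl1 and that of miR-3071 on its own strand, 1 lies in an intron of Rian, 6 overlap exons of Mirg, 3 lie in introns of Mirg and 18 lie outside these annotated genes. The members fall into 17 of the Meg3, anti-Rtl1 and Rian stretch and 27 of the stretch from miR-379 to miR-410, which overlaps Mirg at its far end. Mature sequences of 41 of the 44 members were found in RefSeq (GRCm38.p6). The tested members are shown first because the comparisons between groups rest on them, with the seed in capitals, in their order along the chromosome.
mmu-miR-127-3p: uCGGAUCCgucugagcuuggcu
mmu-miR-434-5p: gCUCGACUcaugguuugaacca
mmu-miR-434-3p: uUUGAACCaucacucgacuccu
mmu-miR-136-5p: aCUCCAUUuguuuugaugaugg
mmu-miR-136-3p: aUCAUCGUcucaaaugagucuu
mmu-miR-411-5p: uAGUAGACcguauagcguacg
mmu-miR-300-3p: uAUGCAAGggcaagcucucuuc
mmu-miR-381-3p: uAUACAAGggcaagcucucugu
mmu-miR-541-5p: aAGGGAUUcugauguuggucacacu
mmu-miR-409-3p: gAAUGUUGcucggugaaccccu
mmu-miR-410-3p: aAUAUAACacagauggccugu
No seed was shared: the 41 sequences hold 41 different seeds. The seeds of miR-300-3p and miR-381-3p are close but not equal, and both sequences share most of the bases that follow the seed.

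The other 2 tested members are both arms of miR-3071, the only hairpin of the list on the minus strand, and they overlap miR-136 base for base. In the next lines the overlap is in capitals, which is 20 bases for the first pair (chr12:109595331-109595350) and 19 for the second (chr12:109595366-109595384), where each sequence is the reverse complement of its partner.
mmu-miR-136-5p: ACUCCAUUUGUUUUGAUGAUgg
mmu-miR-3071-3p: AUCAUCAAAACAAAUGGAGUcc
mmu-miR-136-3p: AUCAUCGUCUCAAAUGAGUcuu
mmu-miR-3071-5p: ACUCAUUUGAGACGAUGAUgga
The deposited counts of partners were almost the same in every library. miR-136-5p and miR-3071-3p held 925 and 958 counts over all libraries, had equal counts in 8 of 23 libraries and differed by 4.01% in the median library. miR-136-3p and miR-3071-5p held 1974 and 1880 counts, had equal counts in 5 libraries and differed by 3.85% in the median library. Whether reads were counted by strand is not given in the sources used here, so reads of the partners cannot be told apart, and the 13 tested members carry no more than 11 separate measurements.

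Since the members other than miR-3071 are thought to share 1 precursor, the region at the start of Meg3 is also shown (RefSeq, GRCm38.p6, plus strand, chr12:109540746-109541045, 300 bases around the start). The capitals mark TGACGTCA, the palindromic letters of the cAMP response element, which were searched on both strands.
Meg3: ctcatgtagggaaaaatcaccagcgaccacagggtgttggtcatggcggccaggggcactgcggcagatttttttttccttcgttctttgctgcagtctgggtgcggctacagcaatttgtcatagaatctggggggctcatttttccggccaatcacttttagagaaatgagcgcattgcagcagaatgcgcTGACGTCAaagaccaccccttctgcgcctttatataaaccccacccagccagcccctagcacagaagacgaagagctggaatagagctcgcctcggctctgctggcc
These letters begin 57 bases before the start of the gene and occur in 588 of 32851 promoters of the same length (1.79%). The match is a description of the sequence, and no binding was measured.

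The members were scarce in most livers and high in 2 low-fat livers. Levels are CPM, counts scaled by each library's total and its TMM factor. The summed level of the 44 members was 6821 CPM in reference library 5 and 1020 CPM in reference library 3. In the other 6 reference libraries it lay between 160.1 and 224 CPM, with a median of 167 CPM. In HFoleic the sum lay between 135.9 and 198 CPM (162 ± 21.2, SD, n = 8), and in HFepa between 168 and 222.6 CPM (187 ± 18.9, SD, n = 7). The reference mean of 1111 ± 2326 CPM (SD, n = 8) was therefore set by 2 libraries, and the other 6 overlapped both high-fat groups. Without libraries 3 and 5 the reference mean was 175 ± 24.5 CPM (SD, n = 6). In bulk liver, fewer cells of a type and less of a miRNA per cell cannot be told apart.

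**Figure D1:**
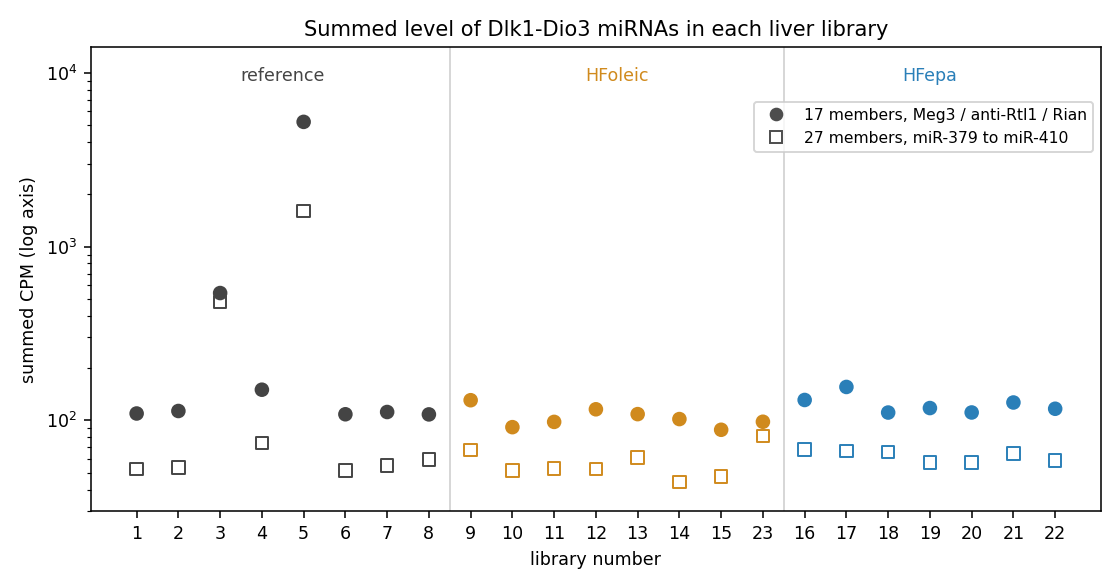
Summed CPM (log axis) of the 17 members of the Meg3, anti-Rtl1 and Rian stretch (filled circles) and of the 27 members from miR-379 to miR-410 (open squares) in each of the 23 libraries, by group; each point is 1 library. Library 5 (5218 and 1603 CPM) and library 3 (540.5 and 479.9 CPM) stand above all others in both stretches.

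Members of the Meg3, anti-Rtl1 and Rian stretch made up most of the summed level in every library. miR-127-3p, which is perfectly complementary to Rtl1 and can direct cleavage of its mRNA, was the most abundant member. It measured 3940 CPM in library 5, 360.4 CPM in library 3, and between 67.0 and 100.2 CPM (median 71.1) in the other 6 reference libraries. In HFoleic it lay between 55.4 and 92.4 CPM (median 68.8), and in HFepa between 74.2 and 105 CPM (median 78.7). Only libraries 3 and 5 were outside the range of the high-fat livers. miR-434-3p, from a neighbouring hairpin that also pairs with Rtl1, measured 581 CPM in library 5, 72.0 CPM in library 3 and between 16.04 and 20.98 CPM (median 17.8) in the other reference libraries. It lay between 9.61 and 17.8 CPM (median 13.9) in HFoleic and between 11.8 and 20.5 CPM (median 16.1) in HFepa. Here too the other 6 reference libraries overlapped the high-fat groups, and the highest of them exceeded every high-fat library. miR-136-3p measured 189.6 CPM in library 5 and 28.4 CPM in library 3, against 4.70 to 7.91 CPM (median 5.77) in the other reference libraries, 3.32 to 6.10 CPM (median 4.56) in HFoleic and 5.21 to 8.50 CPM (median 6.90) in HFepa. Its antisense partner miR-3071-5p measured 179.8 CPM in library 5 and 27.7 CPM in library 3, against 4.53 to 7.55 CPM (median 5.77), 3.08 to 5.73 CPM (median 4.47) and 4.31 to 8.28 CPM (median 6.90) in the same order.

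In the stretch from miR-379 to miR-410, miR-411-5p and miR-541-5p were the most abundant tested members. miR-411-5p measured 696.5 CPM in library 5 and 203 CPM in library 3. The other 6 reference libraries lay between 25.96 and 40.5 CPM (median 28.5), HFoleic between 20.9 and 42.6 CPM (median 27.1) and HFepa between 27.2 and 37.4 CPM (median 32.1), so that all 3 ranges overlapped. miR-541-5p measured 420.1 CPM in library 5 and 162 CPM in library 3. It lay between 13.0 and 18.6 CPM (median 14.8) in the other reference libraries, between 11.4 and 27.5 CPM (median 16.4) in HFoleic and between 14.04 and 22.07 CPM (median 17.9) in HFepa. The remaining 4 of this stretch, miR-300-3p, miR-381-3p, miR-409-3p and miR-410-3p, had between 48.0 and 169 CPM in library 5, between 18.3 and 27.5 CPM in library 3 and group medians between 1.43 and 3.17 CPM in HFoleic and HFepa. For each of the 13 tested members library 5 was the highest library, library 3 was above the 21 others, and the other 6 reference libraries overlapped the high-fat range.

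**Figure D2:**
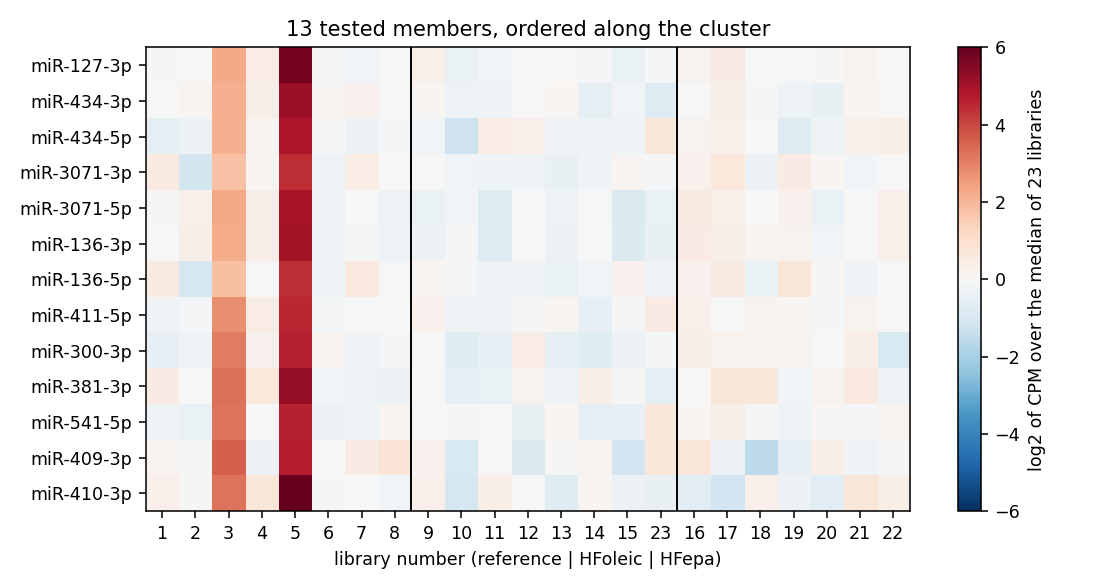
Level of the 13 tested members (rows, in their order along the cluster) in the 23 libraries (columns, by group), as log2 of CPM over the median of all libraries with 0.1 CPM added to both. The columns of reference libraries 3 and 5 are red in all rows, and the other 21 columns are close to white.

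HFoleic vs. reference compares the high-fat with the low-fat diet within the control lineage. All 13 tested members were called lower in HFoleic by edgeR. A call needed a log2 fold change of over 0.25 in size and an adjusted p under 0.05 (quasi-likelihood, Benjamini-Hochberg). Over all 386 tested miRNAs, 12.4% were called in either direction and 7.51% were called lower. The log2 fold changes of the 13 lay between -3.88 and -2.12, with a median of -2.64, beside a median of -0.0024 over all tested miRNAs. miR-410-3p had the value of -3.88 ± 0.94 (SE, adjusted p = 0.0174), miR-127-3p had -3.09 ± 0.78 (SE, adjusted p = 0.0176), and miR-136-5p had -2.12 ± 0.62 (SE, adjusted p = 0.0288). miR-434-3p fell by 2.75, miR-411-5p by 2.19 and miR-541-5p by 2.35 on the log2 scale. These calls rested on library 5. Without it none of the 13 was called by the same test (lowest adjusted p = 0.0631, 12 with an unadjusted p under 0.05), and the log2 fold changes lay between -1.58 and -0.54. Without libraries 3 and 5, an alternative added after the values were seen, none was called (lowest adjusted p = 0.108, 3 with an unadjusted p under 0.05), 11 of 13 remained below 0 and the median was -0.20. Leaving out library 3 alone, all 13 were called. DESeq2, which by default replaces a count that lies far from the others of its group, called 3 of 13 (median log2 fold change -0.91) and without that replacement 13. limma-voom with a weight per library called 0, with 0 at an unadjusted p under 0.05. An exact permutation test of ranks called 0, with 3 at an unadjusted p under 0.05. Over all 386 miRNAs DESeq2 called 28, limma-voom 31 and ranks 0, so the 0 of the rank test is not particular to the members. By edgeR, 12 of 385 miRNAs were called without library 5 and 10 of 386 without libraries 3 and 5.

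HFepa vs. reference compares both lineage and diet. By edgeR's quasi-likelihood test 11 of the 13 tested members were called lower in HFepa, where 15.8% of all tested miRNAs were called in either direction and 10.6% lower. miR-136-5p and miR-3071-3p, an antisense pair, had log2 fold changes of -1.82 each and an adjusted p of 0.0523 each. The 13 log2 fold changes lay between -3.80 and -1.82, with a median of -2.24, beside -0.0566 over all tested miRNAs. miR-127-3p had a log2 fold change of -2.84 ± 0.81 (SE, adjusted p = 0.0242) and miR-410-3p one of -3.80 ± 1.003 (SE, adjusted p = 0.015). Both comparisons share the same 8 reference libraries. Without library 5 none of the 13 was called (edgeR, lowest adjusted p = 0.101, 4 with an unadjusted p under 0.05) and the median was -0.70. Without libraries 3 and 5 none was called (edgeR, lowest adjusted p = 0.477, 0 with an unadjusted p under 0.05), 3 of 13 were below 0 and the median was 0.14, so the direction turned. DESeq2 called 0 of 13 (3 with an unadjusted p under 0.05) and without the replacement of outlying counts 13 of 13 (lowest adjusted p = 0.000306). limma-voom with library weights called 0 and the exact permutation test of ranks 0, both with 0 at an unadjusted p under 0.05. Over all 386 miRNAs DESeq2 called 47, limma-voom 49 and ranks 41. By edgeR, 36 of 385 miRNAs were called without library 5 and 35 of 386 without libraries 3 and 5.

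**Figure D3:**
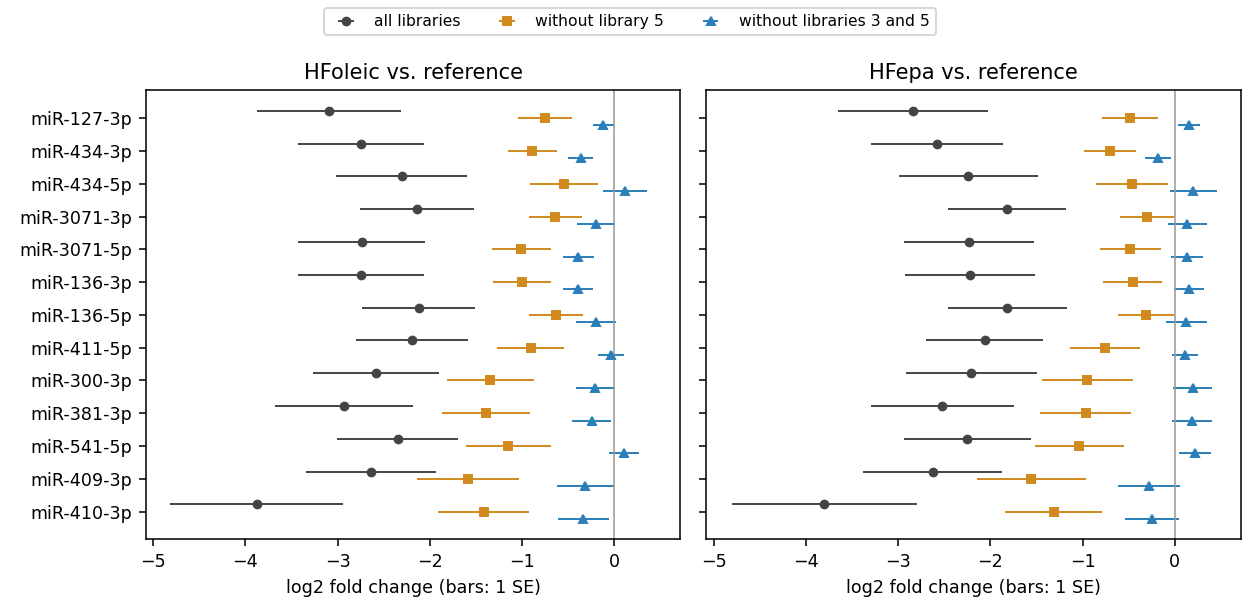
Log2 fold change of the 13 tested members in HFoleic vs. reference (left) and HFepa vs. reference (right), with bars of 1 SE from edgeR, using all libraries (circles), without library 5 (squares) and without libraries 3 and 5 (triangles). The circles lie at -1.82 or below, the squares between -1.58 and -0.30 and the triangles between -0.39 and 0.22.

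HFepa vs. HFoleic compares the lineages under the high-fat diet. None of the 13 tested members was called by edgeR (lowest adjusted p = 0.968, 0 with an unadjusted p under 0.05), as for all 386 tested miRNAs (0% called). DESeq2, limma-voom and the exact permutation test of ranks also called 0 members, and 0, 1 and 0 of all 386 miRNAs. All 13 log2 fold changes were above 0, between 0.01 and 0.53, with a median of 0.25, beside -0.0227 over all tested miRNAs, although 1 of the 13 was below 0 with upper-quartile factors and with ranks, 2 with a term for library number, and up to 3 when single libraries were left out (3 without HFoleic library 10). For miR-127-3p the level was 82.9 ± 10.9 CPM (SD, n = 7) in HFepa and 69.6 ± 11.6 CPM (SD, n = 8) in HFoleic, which is 0.25 ± 0.75 (SE) on the log2 scale. For miR-136-3p it was 6.83 ± 1.11 CPM (SD, n = 7) and 4.71 ± 1.05 CPM (SD, n = 8), which is 0.53 ± 0.70 (SE) on the log2 scale. The standard errors are those of a spread shared by all groups, which includes libraries 3 and 5. When only the libraries of HFoleic and HFepa entered the fit, 0 of 11 tested members passed, 4 of them with p under 0.05 before adjustment. Over all 355 miRNAs of that fit 0 were called.

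The 31 members below the filter held 2000 counts in all. Of these counts 1123 were in library 5, 271 in library 3 and 606 in the other 21 libraries, so that 69.7% came from 2 of 23 libraries. Library 5 was the highest library for 26 of the 31 by CPM and library 3 for 3. miR-431-5p, also antisense to Rtl1, had 200 counts in library 5, 25 in library 3 and at most 6 in any other library. miR-127-5p, the rarer arm of its hairpin, had 112, 9 and at most 6 counts, and miR-379-5p, the first of its stretch, had 88, 23 and at most 9. miR-673-5p had 78, 25 and at most 6 counts, and miR-540-3p had 70, 17 and at most 3. miR-668-3p, within Mirg, had 56 counts in library 5, 0 in library 3 and at most 3 elsewhere. 2 members did not follow this pattern. miR-337-3p had 7 counts in HFoleic library 10, against 3 in library 5 and 4 in library 3, and miR-409-5p had 7 counts in HFoleic library 14, 3 in library 5 and 0 in library 3. No high-fat library had more than 9 counts of any of the 31. With no filter, edgeR's quasi-likelihood test called 14 of 44 members lower in HFoleic, where 2.38% of all 1218 miRNAs were called in either direction and 1.64% lower. It called 9 of 44 lower in HFepa, where 3.53% were called in either direction and 2.55% lower, each against the reference. Of the 31 below the filter, those called were miR-540-3p (log2 fold change -3.60 ± 0.95, SE, adjusted p = 0.0425) and miR-673-5p (-3.07 ± 0.82, SE, adjusted p = 0.0428) in HFoleic, and miR-431-5p (-3.91 ± 1.05, SE, adjusted p = 0.0365) and miR-369-3p (-4.79 ± 1.24, SE, adjusted p = 0.0306) in HFepa. miR-369-3p, near the far end of its stretch, had 50 counts in library 5, 20 in library 3 and at most 5 elsewhere. With library 5 also left out, an alternative added after the values were seen, 30 of the 31 still had counts, and edgeR called 0 of them in HFoleic (lowest adjusted p = 0.0891, 10 with an unadjusted p under 0.05) and 0 in HFepa (lowest adjusted p = 0.0981, 8 with an unadjusted p under 0.05).

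A further 38 arms and miRNAs of the domain that are not on the list have rows in the table, by name and RefSeq position. None of the 38 passed the filter. They held 1241 counts, of which 698 were in library 5, 189 in library 3 and 354 in the other 21 libraries, and library 5 was the highest library for 25 of them.

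In their tested members, libraries 5 and 3 differed in how far the stretches of the cluster stood above the other 21 libraries. Each ratio is the CPM of a member in 1 library over its CPM in the 21 others pooled, given where those held at least 10 counts. In library 5 the 7 tested members of the Meg3, anti-Rtl1 and Rian stretch had ratios between 22.09 and 52.2 (median 32.6), and the 6 tested members from miR-379 to miR-410 had ratios between 22.8 and 90.8 (median 27.4), overlapping ranges. In library 3 the first 7 had ratios between 3.48 and 5.01 and the other 6 between 6.66 and 12.3, ranges that did not overlap. miR-127-3p was 52.2 times the pooled level in library 5 and 4.78 times in library 3, whereas miR-409-3p was 27.6 and 12.3 times. Accordingly, miR-379 to miR-410 made up 47.0% of the summed level in library 3, 23.5% in library 5 and between 30.0% and 45.3% in the other 21 libraries. miR-127-3p alone made up 57.8% of the sum in library 5, 35.3% in library 3 and between 38.2% and 47.2% in the others. Each of these is a single library with no replicate, and the difference between them was not tested.

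**Figure D4:**
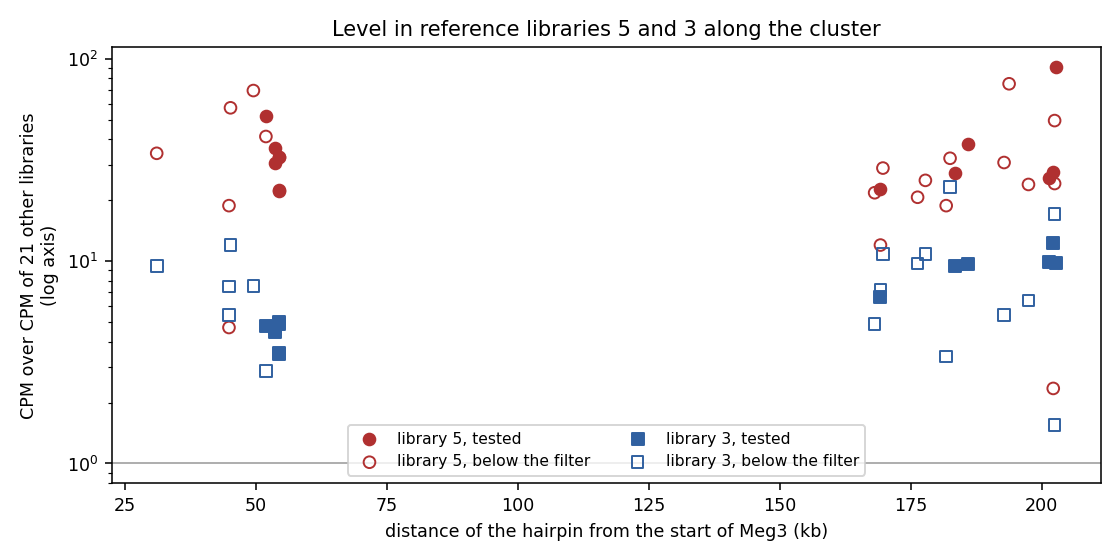
CPM in reference library 5 (circles) and library 3 (squares) over the pooled CPM of the 21 other libraries (log axis), against the distance of the hairpin from the start of Meg3 in kb, for the 32 members with at least 10 counts in those 21; filled symbols are tested members. Library 5 is higher than library 3 at all tested members; miR-409-5p and miR-668-3p, with 0 counts in library 3, have no square.

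Joint variation of the members was described by Spearman's rho of log2 CPM over pairs of the 11 tested members other than miR-3071. The median rho over 55 pairs was 0.351 across 23 libraries, beside 0.001 over all pairs of the 386 tested miRNAs. Without libraries 3 and 5 it was 0.147 beside 0.003. Within groups the median was 0.643 in the reference, 0.143 in the reference without libraries 3 and 5, 0.214 in HFoleic and 0.143 in HFepa. Single pairs ranged widely once those libraries were left out, from -0.352 to 0.714 over 21 libraries. Members of a library share its depth and its normalization, and no test was made of these values. Library 5 was the highest library for 36 of the 386 tested miRNAs (9.33%), which include all 13 tested members. Library 3 was the highest for 82 (21.2%), which include none. Levels over 4 times the median of the other libraries occurred for 25 miRNAs in library 5, 13 of them members, for 32 in library 3, 11 of them members, and for 0 to 5 in each other library, none of them a member.

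The 5 other tested members that averaged 10 CPM or more were set against miR-127-3p across libraries, on the log2 CPM scale (prior count 2). Over 23 libraries Pearson's r lay between 0.943 and 0.978 (permutation test, adjusted p between 0.000175 and 0.00055) and Spearman's rho between 0.506 and 0.695 (permutation test, adjusted p between 0.00507 and 0.056), adjusted over 35 relations. Without libraries 3 and 5, the 2 farthest from the median of miR-127-3p, r lay between 0.361 and 0.569. It was 0.569 for miR-136-3p (rho 0.574, permutation test, adjusted p = 0.0155 for r and 0.0328 for rho), 0.541 for miR-411-5p (rho 0.599, permutation test, adjusted p = 0.0201 and 0.025) and 0.361 for miR-541-5p (rho 0.351, permutation test, adjusted p = 0.156 and 0.184). For miR-434-3p r was 0.506 (permutation test, adjusted p = 0.0313) and rho 0.471 (adjusted p = 0.0761), and for miR-3071-5p r was 0.552 (permutation test, adjusted p = 0.0183) and rho 0.506 (adjusted p = 0.0636). Within HFoleic r lay between 0.201 and 0.422 and within HFepa between 0.091 and 0.709, and no relation passed the threshold in either group (exact permutation test, lowest adjusted p = 0.397 and 0.121 for r). Within libraries 1 to 11, which hold libraries 3 and 5, r lay between 0.959 and 0.996, and within libraries 12 to 23 between 0.233 and 0.757. The size of r over all libraries thus rested on libraries 3 and 5.

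**Figure D5:**
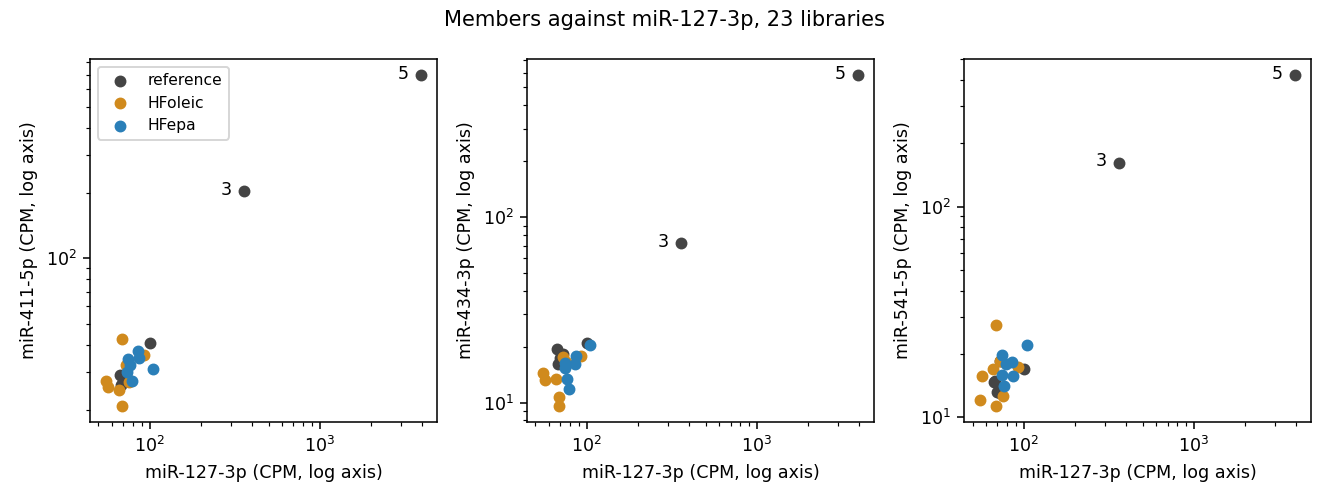
Level of miR-411-5p, miR-434-3p and miR-541-5p against miR-127-3p (CPM, log axes) in the 23 libraries, coloured by group; libraries 3 and 5 are numbered. The other 21 libraries form 1 cloud in which the 3 groups overlap, with miR-127-3p between 55.4 and 105 CPM.

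The ratio of the arms of a hairpin was compared within libraries, where no normalization enters. Of 9 hairpins with both arms on the list, miR-136, miR-434 and miR-3071 had enough counts to be tested. miR-434 had 7.66 times as much of its 3p as of its 5p arm in library 5 and 6.18 times in library 3, beside a median of 6.33 in the other 21 libraries. miR-136 had ratios of 2.48 and 2.35 beside a median of 1.71. Both libraries lay within the range of the others for both hairpins. In 9 tests (3 hairpins in 3 comparisons) no difference of the log2 ratio passed the threshold after adjustment. For miR-434 in HFepa vs. reference the log2 ratio was 2.56 ± 0.27 (SD, n = 7) and 2.92 ± 0.25 (SD, n = 8), a difference of -0.35 (exact two-sided permutation test, p = 0.0241, adjusted p = 0.217). Among the untested hairpins, miR-127 was counted almost only as its 3p arm (34398 against 172 counts) and miR-411 almost only as its 5p arm (8966 against 75 counts).

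Markers of other cells were also high in single reference libraries, and their part in the results above was not tested. Some sets of markers were highest in library 5 or 3 and some in library 4. In library 5, miR-375-3p, a miRNA of pancreatic islets and other endocrine cells, measured 2020 CPM, against 20.3 CPM in library 3, 57.3 CPM in library 4 and 9.00 to 33.9 CPM in the other 20 libraries. miR-7b-5p had 24 counts in library 5 and at most 1 elsewhere, and miR-7a-5p measured 26.5 CPM against 9.13 to 16.8 CPM in the other 20. The acinar markers of the same list, miR-216a-5p, miR-216b-5p and miR-217-5p, had 1, 1 and 3 counts in library 5. The 6 markers of pancreas and islets summed to 2052 CPM in library 5, 30.7 CPM in library 3 and 69.4 CPM in library 4. The sum was 24.1 to 42.9 CPM in 5 other reference libraries, 20.6 to 47.2 CPM in HFoleic and 21.2 to 34.1 CPM in HFepa. Of 2 tested, 1 was called lower in both comparisons with the reference. Of the 8 neuronal markers, miR-153-3p had 54 counts in library 5 and at most 1 elsewhere and miR-129-5p had 82 counts in library 5 and 48 in library 3, while miR-124-3p, the defining one, had 3 and 0. miR-9-5p (6.21 CPM) and miR-138-5p (7.56 CPM) were also highest in library 5, against at most 1.69 and 2.19 CPM in the other 20 libraries. miR-9-3p had 2 counts in library 5 and 0 elsewhere. In library 5, miR-137-3p (8.73 CPM) and miR-128-3p (45.67 CPM) lay within the range of the other 20 libraries (5.92 to 11.13 and 20.78 to 52.31 CPM). The neuronal list summed to 91.8 CPM in library 5, 64.6 CPM in library 3 and 61.97 CPM in library 4. The sum was 54.3 to 65.3 CPM in 5 other reference libraries, 32.0 to 56.4 CPM in HFoleic and 36.05 to 51.2 CPM in HFepa. Of these markers, 1 of 3 tested was called lower in both comparisons with the reference.

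Library 3 held more of some other lists. The 7 markers of intestine and biliary epithelium summed to 1811 CPM in library 3 and 564 CPM in library 5, against 549 to 736 CPM in 5 other reference libraries, 548 to 799.6 CPM in HFoleic and 621 to 682 CPM in HFepa, and library 4, whose members summed to 224 CPM, had 2589 CPM. Of these 7, 1 was called lower in HFoleic and 2 in HFepa. In library 3 miR-200b-3p measured 435 CPM, against 54.8 to 131 CPM in the 20 libraries other than 3, 4 and 5. In library 4 it measured 114.6 CPM, within that range. miR-215-5p measured 1885 CPM in library 4 and 43.0 CPM in library 3, against 22.5 to 45.2 CPM in those 20 libraries. The sums of libraries 3 and 4 were thus raised through different markers of this list. The 5 markers of mesenchymal and stellate cells, none of them called, summed to 42510 CPM in library 3 and 33220 CPM in library 5. Library 4 had 28000 CPM. The sum was 23450 to 26500 CPM in 5 other reference libraries, 19870 to 28560 CPM in HFoleic and 23480 to 30360 CPM in HFepa. miR-143-3p made up most of these sums, with 39910 CPM in library 3 and 32220 CPM in library 5. In library 5 the other markers of this list lay within the range of the 20 libraries other than 3, 4 and 5. In library 3 all 5 lay above that range. Of the 5 leukocyte markers, 1 was called lower in both comparisons with the reference. They summed to 2923 CPM in library 3, 2144 CPM in library 5 and 2103 CPM in library 4. The sum was 1332 to 1761 CPM in 5 other reference libraries, 1192 to 2000 CPM in HFoleic and 1267 to 1929 CPM in HFepa. The 5 hepatocyte markers, none called, summed to 188000 CPM in library 3, 293000 CPM in library 5 and 295600 CPM in library 4. The sum was 319800 to 338800 CPM in 5 other reference libraries, 282300 to 357700 CPM in HFoleic and 263700 to 340900 CPM in HFepa. Markers of the labelled tissue were thus seen in every library, with the lowest sum in library 3. There miR-122-5p measured 10800 CPM, against 13700 to 22880 CPM in the 20 libraries other than 3, 4 and 5. None of the 3 markers of red blood cells was called. They summed to 731 CPM in library 3, 1299 CPM in library 5 and 1701 CPM in library 4. The sum was 893 to 1070 CPM in 5 other reference libraries, 716 to 1386 CPM in HFoleic and 825 to 1428 CPM in HFepa. The 7 markers of muscle and heart, 6 of them in the table, summed to 219 CPM in library 4, 11.8 CPM in library 5 and 8.12 CPM in library 3, against 2.13 to 6.15 CPM in 5 other reference libraries, 1.59 to 12.4 CPM in HFoleic and 3.09 to 7.61 CPM in HFepa, and the 1 tested was called lower in both comparisons with the reference.

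miRNAs of other imprinted genes did not all move with the members. miR-335-5p and miR-335-3p, from an intron of Mest, measured 65.8 and 47.2 CPM in library 5, within the range of the 20 libraries other than 3, 4 and 5 (52.7 to 91.9 and 23.3 to 58.5 CPM). miR-298-5p, from the Gnas locus, had 188 counts in library 5, 36 in library 3 and at most 14 elsewhere. Of the 9 miRNAs of this list in the table, 2 were tested and 1 of them was called higher in both comparisons with the reference. miR-483-3p, from Igf2, had at most 1 count in any library, and miR-675-3p, from H19, had 4 counts in library 3 and 0 elsewhere.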

How the data were processed

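The authors trimmed adapters with the FASTX-Toolkit, aligned reads with Bowtie in ncPRO-seq, and deposited raw read counts of each mature miRNA per library. The paper names the build as GRCm38.p6 and as mm9, and the processing notes as mm10; the counts carry no coordinates, and positions here are from RefSeq and GENCODE on GRCm38. RNA input is 800 ng in the labels. The authors' size-factor signal, group means, fold changes and p-values were not used.

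Groups follow the labelled group. Library totals were the sums over all miRNAs; the filter was edgeR's filterByExpr by group, which asks for about 1.91 CPM in 7 libraries. All 13 tested members met it on the 21 libraries other than 3 and 5. On the high-fat libraries alone 12 met it. The exception was miR-409-3p, which reached the level in 3 HFoleic and 2 HFepa libraries. One model over 3 groups was fitted with TMM and tested by quasi-likelihood with Benjamini-Hochberg adjustment over 386 miRNAs (edgeR 4.0.16, R 4.3.3; alternatives with DESeq2 1.42.0 and limma 3.58.1). The tests were checked on simulated counts that held no outlying library, so this check does not cover a case such as library 5. The permutation tests were two-sided. Those of ranks and of arm ratios used all arrangements of the libraries compared. Those of correlations used all arrangements for up to 8 libraries and 100000 resamples otherwise. The smallest p these resamples can give is 1e-05. Arm ratios had 0.5 added to each count and needed a median of 10 counts of the rarer arm. Values in each library were given for members called at least once that averaged 10 CPM or more, and other miRNAs were named from lists of cell markers and imprinted genes or after their values were seen. The members and lists were chosen with earlier results of these data known. Nothing in the labels says more than that each library is a separate sample. Python 3.11.15, pandas 2.3.3, scipy 1.17.1 and matplotlib 3.10.9 were used for the rest. The alternatives were other tests, factors, filters, thresholds and sets of libraries, thinning to 3725432 counts, and leaving out each library.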

Additional observations from a re-analysis of the deposited data

Results flagged for a closer look

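In each group, the highest and lowest library of every tested member and of the sum of all 44 members was set against Dixon's 95% critical value, which chance exceeds in about 1 in 20 groups. Of 42 such groups 17 exceeded it, 14 of them through library 5 of the reference, which is 1 library counted for members that vary together. The values in library 5 were 3940 CPM for miR-127-3p, 189.6 CPM for miR-136-3p, 76.4 CPM for miR-136-5p, 581 CPM for miR-434-3p, 75.7 CPM for miR-434-5p, 696.5 CPM for miR-411-5p, 69.85 CPM for miR-300-3p, 108 CPM for miR-381-3p, 48.0 CPM for miR-409-3p, 169 CPM for miR-410-3p, 420.1 CPM for miR-541-5p, 79.6 CPM for miR-3071-3p, 179.8 CPM for miR-3071-5p and 6821 CPM for the sum of the members. The other 3 were miR-127-3p in HFepa library 17 (105 CPM), miR-300-3p in HFepa library 22 (1.42 CPM, the lowest of its group) and miR-541-5p in HFoleic library 23 (27.5 CPM).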

How the results depend on the processing

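The number of members called lower in HFoleic vs. reference (13) became 3 with DESeq2, 6 of 6 tested with at least 10 counts in every library, and 0 with limma-voom with quality weights, ranks, only the 2 groups compared, a term for library number (1 to 11 against 12 to 23), libraries 1 to 11 alone, reference libraries 4 and 5 or 3 and 5 left out, and no filter with library 5 left out. In HFepa vs. reference the count (11) became 0 under DESeq2, limma-voom, ranks, 2 groups, the library term, libraries 4 and 5 or 3 and 5 left out, and no filter with library 5 left out, and 6 of 6 with at least 10 counts in every library. Leaving out each library gave 0 to 13 in both, with 0 without library 5. Without HFoleic library 14 or 15, 8 were called in HFoleic. Without HFepa libraries 16, 17, 18, 20, 21 or 22, 4, 5, 3, 4, 4 and 2 were called in HFepa. Calls over all miRNAs fell as well in these runs. They were 21 of 386 and 20 of 388 in HFoleic, and 38, 41, 38, 41, 44 and 32 of 390 to 392 in HFepa, in the same order. In HFoleic, 0 miRNAs of any kind were called with ranks or with libraries 1 to 11 alone. The library term gave 1 call over all miRNAs, 2 groups 7 and limma-voom 31. In HFepa the library term gave 0, whereas 2 groups, ranks and limma-voom gave 40, 41 and 49. Where 0 or 1 of all miRNAs were called, the 0 for the members is not particular to them. The median log2 fold change was -0.35 with limma-voom and -0.20 without libraries 3 and 5 in HFoleic, and -0.025 with limma-voom and 0.14 without both in HFepa. It was -2.63 in HFoleic and -2.13 in HFepa with 2 groups, -2.70 and -2.40 with the library term, and -2.68 in HFoleic with libraries 1 to 11 alone, where calls were lost.

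Without libraries 3 and 5, log2 fold changes turned positive in HFoleic for miR-434-5p (0.12) and miR-541-5p (0.11), and in HFepa for miR-127-3p (0.15), miR-136-3p (0.15), miR-434-5p (0.20), miR-411-5p (0.11), miR-300-3p (0.19), miR-381-3p (0.19), miR-541-5p (0.21), miR-3071-5p (0.14) and the uncalled miR-136-5p (0.13) and miR-3071-3p (0.14). With limma-voom in HFepa they did so for miR-434-5p (0.14), miR-300-3p (0.041), miR-381-3p (0.12) and miR-541-5p (0.044). The median rho with miR-127-3p (0.625) was 0.524 in HFoleic, 0.179 in HFepa and 0.552 in libraries 12 to 23, short of the threshold for those numbers of libraries. Arm ratios gave 0 to 1 calls on leaving out each library, the 1 without HFepa library 19. The causes were not tested.

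The library number parts the groups: no HFepa library is below 12 and no reference library above 11, so it and HFepa vs. reference cannot be told apart. No paired analysis was possible because replicate numbers only follow the order of the samples. The 31 members below the filter had at most 9 counts in any high-fat library and were compared only without it. Counting intervals would cover counting error only.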

Other observations

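Outside libraries 3 and 5, HFoleic library 23 had the largest share of the summed level from the miR-379 to miR-410 stretch among the other 21 libraries, 45.3%, with 27.5 CPM of miR-541-5p and 42.6 CPM of miR-411-5p, and 9.61 CPM of miR-434-3p, the lowest of the 23 libraries. miR-409-5p had 0 counts in every reference library other than library 5, where it had 3, and HFoleic libraries 12, 13 and 14 had 3, 4 and 7 counts. These were noticed after the values were seen and were not tested.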
